A study of Rattus norvegicus with 16 samples.

Results

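The cytosolic ribosomal proteins, the protein parts of the ribosomes that work in the cytoplasm, were read on arrays of rat kidney RNA. Members were all probe sets (groups of oligonucleotides against 1 transcript or several) whose only gene symbol in the platform annotation starts with Rpl or Rps and a digit, or with Rplp, without the Rps6k kinases. That gave 62 of 8740 probe sets, which stand for 43 gene symbols. By the start of the symbol alone, 41 probe sets were counted to the large subunit, 19 to the small subunit and 2 to the stalk. Among the 19 are probe sets of Rps2-ps1 and Rps4x-ps9, whose symbols mark them as pseudogenes. Rpl19l4 and Rplp1l3 were likewise counted by the start of their symbols. A further 40 probe sets list several symbols of which at least 1 is ribosomal; they were counted beside the members but not named.

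Both kidneys of 8 rats were measured, 1 array per kidney. ACTH (adrenocorticotropic hormone, which drives the adrenal cortex to make glucocorticoids) went to the right kidney of rats 1 and 5, DEX to that of rats 3 and 7, and saline to that of rats 2, 4, 6 and 8. Left kidneys served as the control within each animal. The labels do not expand DEX and give no dose, route, duration, sex, strain or age, so exposure of the left kidneys to the hormones was not tested. The array titles give 4 saline rats, and the series text 2 rats per treatment; groups follow the titles. The arrays also fall into 2 sets by rat number, 1 to 4 and 5 to 8, for which the labels have no name, each with 1 ACTH, 1 DEX and 2 saline rats. This split was seen in an earlier pass over the same data.

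Each ribosome has a large and a small subunit, built from ribosomal RNA and one copy of most ribosomal proteins, so cells make these proteins in matched amounts and degrade the excess. The small subunit reads the messenger RNA, the large subunit joins amino acids, and the stalk of Rplp0, Rplp1 and Rplp2 recruits the elongation factors. In mammals the messenger RNAs of ribosomal proteins begin with a cytosine followed by a run of pyrimidines, the 5′ terminal oligopyrimidine motif, through which the growth kinase mTOR controls their translation more than their amount.

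The start sites shown are those of the genes with a promoter sequence and the widest called differences between the rat sets in left kidneys. Of these, 6 were higher and 5 lower, and they are shown for the pyrimidine run they carry, or lack, near the start. RefSeq promoters (build GRCr8) matched 37 of the 43 gene symbols. Rpl27, with the probe set that differed most in left kidneys, was not among them. In the 30 bases around each start, 15 before it and 15 from it on, the pattern searched was a C followed by at least 5 bases that are each C or T. It was found on the gene's strand for 24 of the 37 genes (64.9%), against 7111 of all 33469 promoters (21.2%). On the other strand it was found for 4 of the 37 genes (10.8%), against 24.6% of all promoters. A run counted wherever it lay in the window, so these shares are not those of messenger RNAs that begin with one. Among the genes shown, the run of Rpl31 begins at the start site, and those of Rpl21 and Rps6 end before it. Capitals mark each run, and each line is written 5′ to 3′ on the gene's strand. The first 6 genes had a probe set that was higher in left kidneys of rats 1 to 4, and the last 5 had one that was lower there.
Rpl21 (chr12:13386139-13386168, minus strand): ttCCTTTCCgccggggcagccatcttccag
Rpl4 (chr8:73566462-73566491, plus strand): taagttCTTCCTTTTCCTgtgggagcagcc
Rpl31 (chr9:49143096-49143125, plus strand): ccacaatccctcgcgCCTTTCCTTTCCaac
Rps6 (chr5:106420526-106420555, minus strand): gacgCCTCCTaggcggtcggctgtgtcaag
Rps23 (chr2:23814502-23814531, plus strand): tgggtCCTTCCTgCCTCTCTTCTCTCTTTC
Rps27l (chr8:76443643-76443672, plus strand): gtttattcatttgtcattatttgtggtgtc
Rps15 (chr7:10068101-10068130, minus strand): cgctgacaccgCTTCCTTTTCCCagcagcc
Rpl35 (chr3:43165907-43165936, minus strand): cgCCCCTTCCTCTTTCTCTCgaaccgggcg
Rpl36 (chr9:1533765-1533794, plus strand): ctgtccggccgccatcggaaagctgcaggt
Rpl3 (chr7:113507976-113508005, minus strand): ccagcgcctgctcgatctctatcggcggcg
Rpl6 (chr12:41011676-41011705, minus strand): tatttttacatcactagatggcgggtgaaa
Runs stood on both sides of the split: 6 of the 10 genes with a promoter whose largest difference was called higher in rats 1 to 4 had one, and 7 of the 12 whose largest difference was called lower. Where no run is marked, the pattern was not found in the window.

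The deposited values are linear signals, and tests ran on log2(signal + 16) after the 40% of probe sets with the lowest mean were left out. That left 5244 probe sets, 55 of them members with 38 gene symbols. The mean signals of the tested members ran from 61.2 to 5173, with a median of 1367. The median over all tested probe sets was 157. The 7 members under the filter had mean signals of 21.6 to 60.2; they are Rpl5, Rpl17, Rpl19l4, Rpl30, Rplp1l3 and 1 probe set each of Rpl3l and Rps2-ps1. Of the stalk, Rplp0 alone was tested, since no probe set has Rplp1 or Rplp2 as its only symbol. Called means a Benjamini-Hochberg adjusted p under 0.05 in limma over all 5244 probe sets. In these kidney extracts, fewer cells of a type and less RNA per cell cannot be told apart.

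Facts of the whole series bear on every value below. The array medians spanned 0.117 on the log2 scale, so the arrays were not scaled again. Of 17 kidney tubule markers 15 were tested, and their summed signal lay between 20518 and 26806 on all 16 arrays. Summed signals of the 3 tested of 7 adrenal cortex markers were 248 to 371. No value on the arrays was 0; the lowest was 5.18, so no marker was at 0.

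The 2 hormones were compared with saline first, as the change from the left to the right kidney of a hormone rat minus that of the saline rats. No ribosomal protein was called under either hormone. For ACTH, 0 of 55 members were called, with 0.496% of all tested probe sets called, and at an unadjusted p under 0.05 there was 1 member (1.82%), against 9.44% of all. For DEX, 0 members were called, with 0.0% of all called, and none had an unadjusted p under 0.05, against 2.94% of all. The median ACTH effect over the members was -0.09 on the log2 scale and that over all probe sets was -0.00033. The median DEX effect was 0.01 over the members and -0.003 over all.

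ACTH effects on members ran from -0.51 to 0.26, and 19 of 55 were above 0 (34.5%), against 49.9% of all probe sets. The large subunit had a median of -0.11 (36 probe sets) and the small subunit -0.07 (18 probe sets). The median right minus left change of the 55 members was -0.08 in ACTH rat 1 and -0.02 in ACTH rat 5. Among saline rats it was -0.06 in rat 2, 0.18 in rat 4, -0.06 in rat 6 and 0.03 in rat 8. ACTH rat 1 lay just below the saline rats and ACTH rat 5 within their range. In right kidneys alone, with terms for rat set and hormone, the members' median ACTH effect was 0.06, the opposite sign. The median ACTH effect was -0.13 among rats 1 to 4 and -0.003 among rats 5 to 8.

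**Figure D1:**
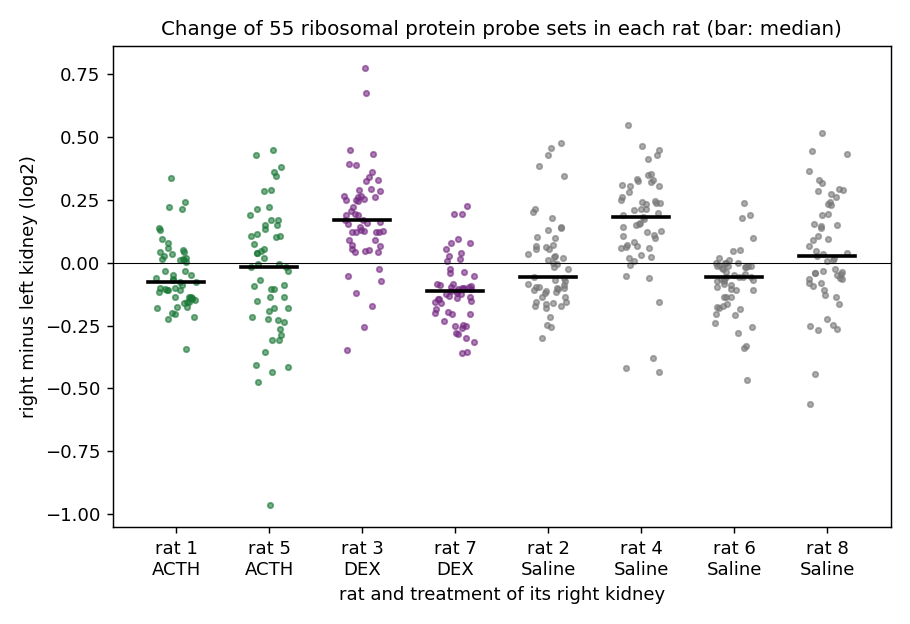
Right minus left kidney difference in log2(signal + 16) for each of the 55 tested ribosomal protein probe sets (points) in each of the 8 rats, grouped as ACTH, DEX and saline; black bars are medians. DEX rats 3 and 7 lie on opposite sides of 0 (medians 0.171 and -0.114), and saline rat 4 has the highest median of all (0.184).

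Rpl24, a large subunit protein that forms a bridge to the small subunit, had the smallest p for ACTH. Its probe set with a mean signal of 1155 read 964 and 1285 in right kidneys of ACTH rats 1 and 5, against 1086, 1093, 1340 and 1221 in those of saline rats 2, 4, 6 and 8. In left kidneys the same probe set read 1227 and 1456 in the ACTH rats, against 934, 788, 1350 and 968 in the saline rats. Both ACTH rats were lower on the right than on the left, by log2 changes of -0.34 and -0.18, whereas the saline rats changed by 0.21, 0.46, -0.01 and 0.33. The ACTH effect was -0.51 ± 0.19 (SE, limma adjusted p = 0.374) and did not pass the threshold. The other Rpl24 probe set gave -0.24 ± 0.17 (limma adjusted p = 0.748), and its sign turned in right kidneys alone (0.004). In left kidneys ACTH rat 1 was above 3 of the 4 saline rats and ACTH rat 5 above all 4, and that difference enters the effect.

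Rps3a, a small subunit protein, came next, and 1 array set its value. Its right kidney signals were 1510 and 765 in ACTH rats 1 and 5, against 1492, 1496, 1268 and 1301 in saline rats 2, 4, 6 and 8. ACTH rat 5 is the lowest of all 16 arrays, with a right minus left change of -0.97, and ACTH rat 1 changed by -0.14. The ACTH effect of -0.44 ± 0.22 (limma adjusted p = 0.558) came to -0.03 without rat 5. Rplp0, the base of the stalk, read 3817 and 6118 in right kidneys of ACTH rats 1 and 5, against 4095, 4352, 4922 and 4724 in saline rats. One ACTH rat was thus below and the other above all saline rats, and the effect was 0.10 ± 0.15 (limma adjusted p = 0.926).

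In the right minus left change, both ACTH rats lay beyond all 4 saline rats for 6 members (10.9%), against 15.7% of all probe sets. All 6 were lower: both Rpl24 probe sets and 1 probe set each of Rpl11, Rpl35, Rpl36al1 and Rps29. Among all probe sets 7.84% were lower in this way. Adipose markers stood out in 1 of these kidneys. The 6 tested of 9 summed to 11082 in the right kidney of ACTH rat 1 and 1587 in that of ACTH rat 5, against 869 to 1553 in those of saline rats and 854 to 3615 in left kidneys of all rats. Smooth muscle and mesangium markers (5 tested of 7) summed to 1177 and 1239 in right kidneys of ACTH rats, against 793 to 905 in those of saline rats and 781 to 1081 in left kidneys of all rats. The ACTH effect was above 0 for all 6 adipose and all 5 smooth muscle markers, with medians of 1.01 and 0.38, and 0 of either list were called. The part of these cells in the ribosomal protein values was not tested. With the mean of the adipose markers as a covariate the members' median ACTH effect was -0.06 and 0 members were called.

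DEX effects on members ran from -0.38 to 0.46, and 30 of 55 were above 0 (54.5%), against 49.5% of all probe sets. The DEX rats differed from each other. The median member change was 0.17 in DEX rat 3 and -0.11 in DEX rat 7. Within rats 1 to 4 the median DEX effect was 0.11, with 37 of 55 above 0, and within rats 5 to 8 it was -0.08, with 12 of 55 above 0. Without DEX rat 3 the median over both sets was -0.14, and without DEX rat 7 it was 0.15. Rpl6, a large subunit protein, had the smallest p. Its probe set with a mean signal of 1486 read 1093 and 1716 in right kidneys of DEX rats 3 and 7, against 1294, 1193, 1862 and 1767 in saline rats 2, 4, 6 and 8. In left kidneys it read 796 and 1498 in the DEX rats, against 1598, 1081, 1802 and 1797 in the saline rats. The left kidneys of the DEX rats were thus low for their set, and the right kidneys lay between or below the saline values. The DEX effect was 0.36 ± 0.17 (limma adjusted p = 0.999), and in right kidneys alone it was -0.13. In the right minus left change, both DEX rats lay beyond all saline rats for 2 members, 1 probe set each of Rpl6 (higher) and Rpl13a (lower), which is 3.64% of members and 12.4% of all probe sets (6.08% higher and 6.33% lower).

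Between the hormones, 0 of 55 members were called, with 0.572% of all called; without rat 1 the count was 1. The 3 members with an unadjusted p under 0.05 (5.45%, against 12.2% of all) had lower ACTH than DEX effects. These were the Rpl6 probe set above (-0.54 ± 0.19), Rps3a (-0.61 ± 0.25) and a probe set of Rpl21, a large subunit protein (-0.62 ± 0.26), with limma adjusted p between 0.292 and 0.372. The Rpl6 difference turned to 0.07 in right kidneys alone. The members' median difference was -0.24 among rats 1 to 4 and 0.08 among rats 5 to 8. Both comparisons share the saline rats. In the saline rats themselves, right minus left gave 0 of 55 members called, with 0.0% of all called, a median of 0.02 and 1 member at an unadjusted p under 0.05 (1.82%, against 3.74% of all).

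The rat sets gave a different picture. In left kidneys 32 of 55 members (58.2%) were called between rats 1 to 4 and rats 5 to 8, with 38.0% of all tested probe sets called. Of the 32, 16 were higher in rats 1 to 4 (29.1% of members, against 17.1% of all probe sets) and 16 were lower (29.1%, against 20.9%). The members did not move as one: their median difference was -0.09, against -0.03 over all. The count of 32 came to 21 without rat 4 (38.2%, against 29.8% of all probe sets in that fit) and to 20 without rat 6 (36.4%, against 30.9%), so the gap to all probe sets was narrower there. In right kidneys, fitted with terms for both hormones, 31 of 55 (56.4%) were called, with 35.2% of all called. There 17 were higher (30.9%, against 15.8% of all) and 14 lower (25.5%, against 19.4%), and the median was 0.01, against -0.05 over all. Among the probe sets with several symbols the share was 12 of 39 in left kidneys (30.8%) and 15 of 39 in right kidneys (38.5%). Among all probe sets with mean signals of 583 or more, 39.7% were called in left and 35.6% in right kidneys, and 23 and 22 of the 41 members that bright. Both kidneys came from the same rats, so the right kidneys are not a second set of animals.

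**Figure D2:**
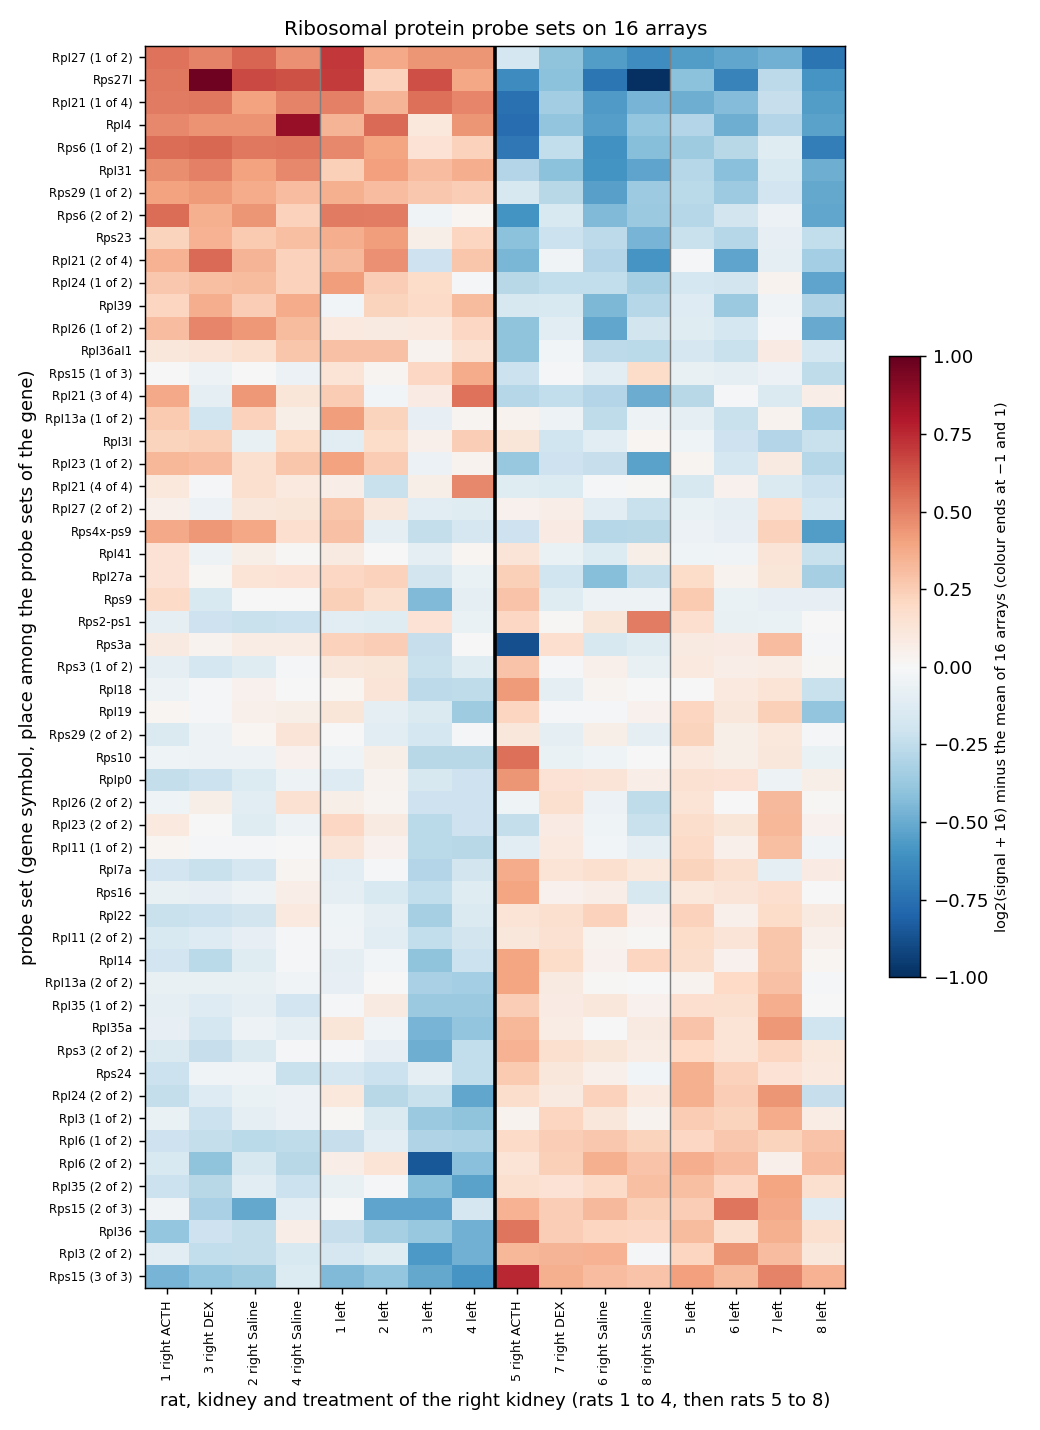
Each row is 1 of the 55 tested ribosomal protein probe sets, ordered by its left-kidney difference, and each column is 1 array: rats 1 to 4 left of the black line and rats 5 to 8 right of it, with right kidneys before left kidneys in each set. Colour is log2(signal + 16) minus the mean of the row; the top and bottom rows change colour at the black line and not between treatments, while right ACTH rat 5 stands out among rats 5 to 8 for Rps3a.

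The base of the stalk was lower in rats 1 to 4, past the threshold in right kidneys only; the difference between the kidneys was not tested. Rplp0 read 4114, 4619, 4026 and 3899 in left kidneys of rats 1 to 4, against 5015, 4986, 4356 and 4690 in those of rats 5 to 8. Rats 2 and 7 overlapped. In right kidneys it read 3817, 4095, 3884 and 4352, against 6118, 4922, 4985 and 4724, and the sets did not overlap. The log2 differences were -0.19 ± 0.08 in left kidneys (limma adjusted p = 0.0702) and -0.36 ± 0.10 in right kidneys (limma adjusted p = 0.0223), and the right-kidney call held in 3 of the 8 fits that each left out 1 rat.

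In the large subunit 10 of 36 tested probe sets were called higher and 11 lower in left kidneys of rats 1 to 4. Over all tested probe sets, 17.1% were called higher and 20.9% lower there. Rpl27, Rpl21, Rpl4 and Rpl31 had the 4 widest rises. Rpl4 lines the tunnel through which the new protein leaves the ribosome, and Rpl31 sits at the exit of that tunnel. The Rpl27 probe set with a mean signal of 929 read 1429, 1139, 1186 and 1188 in left kidneys of rats 1 to 4, against 587, 601, 619 and 519 in those of rats 5 to 8. In right kidneys it read 1203 to 1314, against 559 to 771. Every rat of the first set was above every rat of the second in both kidneys. The left difference was 1.06 ± 0.10, a 2.09-fold higher level (limma adjusted p = 5.04e-05), and the right one was 0.96 ± 0.11 (limma adjusted p = 0.000788). The other Rpl27 probe set, with a mean signal of 1799, was not called. It differed by 0.08 in left (limma adjusted p = 0.593) and 0.11 in right kidneys (limma adjusted p = 0.427).

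Rpl4 read 695, 814, 587 and 745 in left kidneys of rats 1 to 4, against 443, 384, 441 and 371 in those of rats 5 to 8, a 1.70-fold higher level (0.77 ± 0.12, limma adjusted p = 0.000614). Its right kidneys gave 748 to 1008, against 314 to 412, and the sets did not overlap. Rpl31 read 1391, 1565, 1462 and 1512, against 960, 873, 1053 and 831, a 1.59-fold higher level with no overlap. The Rpl21 probe set with a mean signal of 501 read 677, 602, 702 and 670, against 334, 346, 401 and 317, a 1.86-fold higher level with no overlap. All 4 Rpl21 probe sets had positive differences in both kidneys, from 0.22 to 0.90 in left kidneys, of which 2 were called there and 3 in right kidneys.

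Rpl3, Rpl36, Rpl35 and Rpl6 were the large subunit proteins with the widest falls. Rpl3 reaches the centre that joins amino acids, and Rpl35 lies beside the tunnel exit. The Rpl3 probe set with a mean signal of 2248 read 1961, 2024, 1476 and 1575 in left kidneys of rats 1 to 4, against 2559, 3000, 2735 and 2381 in those of rats 5 to 8. The sets did not overlap, and rats 3 and 4 were the lowest. The difference was -0.61 ± 0.12 (limma adjusted p = 0.0026), and -0.44 ± 0.11 in right kidneys (limma adjusted p = 0.015). Rpl36 read 1144, 1065, 1033 and 961, against 1679, 1511, 1726 and 1506, a 1.52-fold lower level. Both Rpl35 probe sets (-0.53 and -0.34) and both Rpl6 probe sets (-0.52 and -0.49) were called in left kidneys, and all 4 again in right kidneys, from -0.50 to -0.25. For each gene 1 of the probe sets depended on single rats. In the 8 fits that each left out 1 rat, Rpl35 at -0.34 was called in 3 in left and 0 in right kidneys, and Rpl6 at -0.52 in 2 in left and 8 in right kidneys; the other Rpl35 and Rpl6 probe sets were called in all 8 on both sides. Rpl11, which binds the p53 regulator Mdm2 when ribosome assembly is disturbed, was called lower by 1 of its 2 probe sets in left kidneys (-0.30 ± 0.08, limma adjusted p = 0.0113).

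In the small subunit 6 of 18 tested probe sets were called higher and 5 lower in left kidneys of rats 1 to 4. The shares over all tested probe sets were 17.1% higher and 20.9% lower. Rps27l, a paralog of Rps27 that p53 induces in human cells, read 719, 513, 689 and 573 in left kidneys of rats 1 to 4, against 324, 268, 360 and 283 in those of rats 5 to 8. In right kidneys it read 635, 697, 868 and 685, against 275, 257, 324 and 204. It had the widest right-kidney difference of the 55 members, 1.40 ± 0.12 or 2.63-fold (limma adjusted p = 0.000331), with 0.97 ± 0.13 in left kidneys (limma adjusted p = 0.00032). Rps6, the protein that S6 kinase phosphorylates downstream of mTOR, was called higher by both of its probe sets in both kidneys. The one with a mean signal of 814 read 1085, 1024, 856 and 908 in left kidneys of rats 1 to 4, against 600, 636, 709 and 472, with differences of 0.67 ± 0.13 in left and 1.05 ± 0.11 in right kidneys. Rps23, which lies at the centre where codons are read, was higher by 0.47 ± 0.10 in left kidneys and 0.62 ± 0.09 in right kidneys.

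Rps15, which reaches the same region of the small subunit, was the small subunit protein with the widest fall. Its probe set with a mean signal of 2309 read 1626, 1684, 1546 and 1463 in left kidneys of rats 1 to 4, against 2939, 2759, 3121 and 2809 in those of rats 5 to 8. In right kidneys it read 1592, 1727, 1685 and 2004, against 3734, 2738, 2831 and 2688. No array of one set reached the other, and the left level was 1.83-fold lower (-0.87 ± 0.08, limma adjusted p = 4.51e-05). Rps3, at the entry of the messenger RNA channel, was lower by 1 of its 2 probe sets (-0.37 ± 0.11 in left kidneys, limma adjusted p = 0.019, and -0.31 ± 0.10 in right kidneys, limma adjusted p = 0.0388, called in 2 of the 8 right-kidney fits without 1 rat). Rps24 was lower in left kidneys (-0.39 ± 0.08, limma adjusted p = 0.00459) at a mean signal of 112.

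Of the 55 members, 24 were called with the same sign in both kidneys (43.6%), against 24.8% of all probe sets. Of these 14 were higher (25.5%, against 11.2%) and 10 lower (18.2%, against 13.6%). In 0 members were both kidneys called with opposite signs, against 0.0191% of all. Signs matched for 51 members (92.7%), against 82.4% of all. Another 8 members were called in left kidneys only (14.5%, against 13.2% of all) and 7 in right kidneys only (12.7%, against 10.4%), shares near those of all probe sets. Those only in left kidneys were Rpl3l, Rpl22, Rps16, Rps24 and 1 probe set each of Rpl3, Rpl11, Rpl13a and Rps15. Those only in right kidneys were Rpl7a, Rplp0, Rps2-ps1, Rps4x-ps9 and 1 probe set each of Rpl21, Rpl23 and Rpl24; other probe sets of Rpl21 and Rpl24 were called in left kidneys as well. For these 15 the difference between the kidneys was not tested. The 16 members called in neither kidney include Rpl18, Rpl19, Rpl27a, Rpl35a, Rpl41, Rps3a, Rps9 and Rps10, with left differences from -0.36 to 0.05, and 1 probe set each of 8 genes measured by several.

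**Figure D3:**
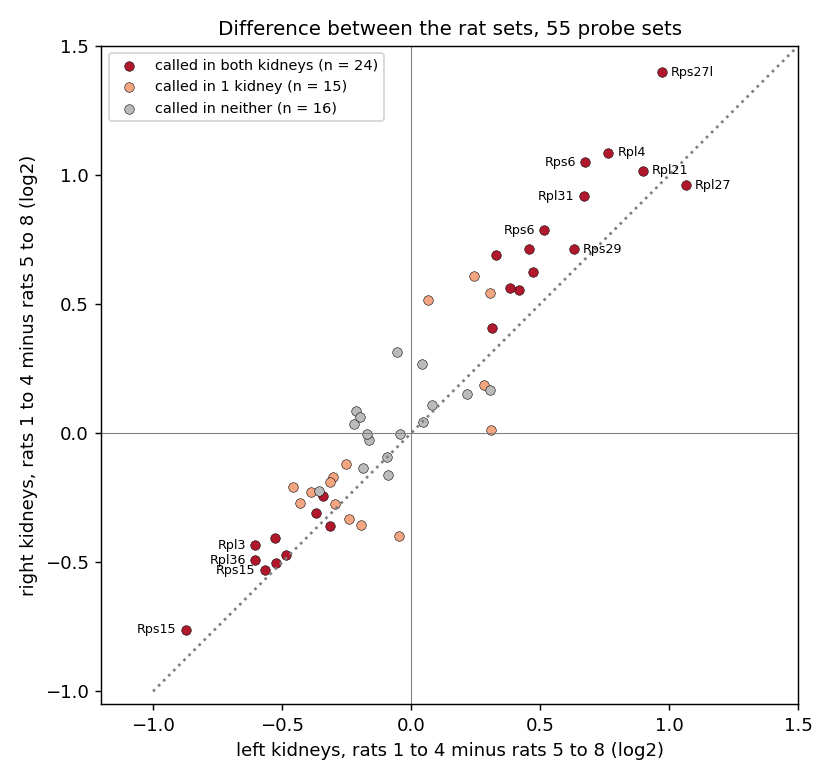
Log2 difference between rats 1 to 4 and rats 5 to 8 for the 55 tested ribosomal protein probe sets, in left kidneys (x axis) and right kidneys (y axis); the dotted line marks equal differences, and colours show where the adjusted p was under 0.05. Of the 55 points, 51 have the same sign in both kidneys, from Rps15 at -0.87 and -0.76 to Rps27l at 0.97 and 1.40.

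Without use of a test, the 4 left arrays of rats 1 to 4 did not overlap those of rats 5 to 8 for 24 members (43.6%), against 35.8% of all probe sets. In right kidneys this held for 36 members (65.5%), against 35.9% of all. Within a set the replicate spread of the members was a little wider than that of all probe sets. The median SD of log2(signal + 16) in left kidneys was 0.17 for members and 0.15 for all in rats 1 to 4, and 0.14 for members and 0.12 for all in rats 5 to 8.

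Probe sets of 1 gene did not always give the same difference, which limits what a single value says about its gene. Of the members, 14 genes had 2 to 4 tested probe sets, 31 in all. In left kidneys the sign differed among the probe sets of 6 genes (42.9%), against 48.6% of 933 genes with several tested probe sets. All probe sets of Rpl3, Rpl6, Rpl35 and Rps6 were called in 1 direction. Rps15 was called both ways (7.14% of the 14 genes, against 7.61% of all). Besides the fall above, its probe set with a mean signal of 421 was lower by 0.57 on the log2 scale and the one with a mean signal of 709 was higher by 0.31 ± 0.10 (limma adjusted p = 0.0296), a call that held in 3 of the 8 fits that each left out 1 rat. That probe set read 778, 718, 817 and 918 in left kidneys of rats 1 to 4, against 669, 659, 676 and 588 in those of rats 5 to 8, and its right-kidney difference was 0.01.

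Rpl27, Rpl24 and Rps29 show the same in pairs. The Rpl27 probe set with a mean signal of 1799 differed by 0.08 ± 0.11 (limma adjusted p = 0.593), where the other differed by 1.06. The Rpl24 probe sets differed by 0.42 (limma adjusted p = 0.0242) and by -0.43 (limma adjusted p = 0.0547) in left kidneys, and in right kidneys they were called in opposite directions (0.56 and -0.27). The lower right-kidney call kept an adjusted p under 0.05 in 1 of the 8 limma fits that each left out 1 rat (0.0487 to 0.116), and the higher one in all 8. The Rps29 probe set with a mean signal of 2876 read 3581, 3455, 3377 and 3323 in left kidneys of rats 1 to 4, against 2313, 2163, 2451 and 1952 in those of rats 5 to 8. The one with a mean signal of 5173 read 5168, 4764, 4563 and 5079, against 6022, 5381, 5551 and 5090. The first was higher by 0.63 ± 0.08 with no overlap, and the second differed by -0.17 ± 0.07 (limma adjusted p = 0.0894). The median span between probe sets of 1 gene was 0.49 among the 14 genes and 0.37 among the 933. By their names, the 2 probe sets of Rpl27 share 1 source sequence, as do those of Rpl24, Rpl35 and Rps6. The same holds for the Rps15 probe sets with mean signals of 421 and 709. Ribosomal protein genes have many processed copies in mammalian genomes, so a probe set can read more than 1 transcript. This was not tested.

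**Figure D4:**
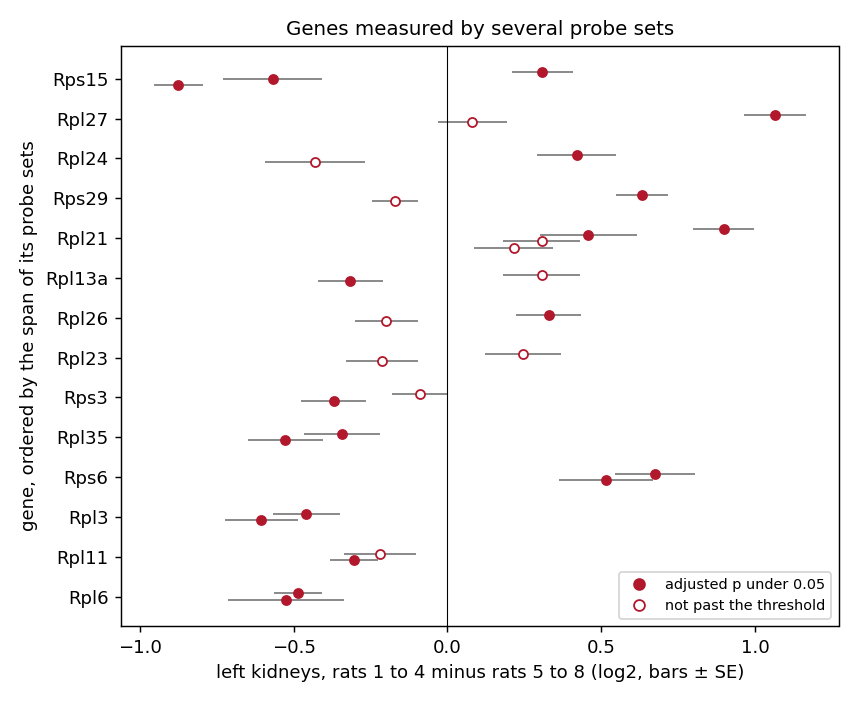
Left-kidney log2 difference between rats 1 to 4 and rats 5 to 8 for the 31 probe sets of 14 ribosomal protein genes measured by several (points, bars are SE), filled where the adjusted p was under 0.05. Rps15 has the widest span (1.18), with filled points on both sides of 0, while both points of Rpl3, Rpl6, Rpl35 and Rps6 are filled on 1 side.

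The called members differed in features that the choice of members did not use. The 16 called higher in left kidneys of rats 1 to 4 had a median mean signal of 685, and 11 of them had names that begin with rc_, a mark of expressed sequence tags. The 16 called lower had a median of 1583, and 6 of them had such names. The 23 not called there had a median of 1376, and 8 of them had such names. Tags without that mark were not counted. These features are not given for all called probe sets, so it cannot be told whether the difference is particular to the members. Control probe sets along 1 transcript moved unequally as well. The 5′ beta-actin probe set was lower in left kidneys of rats 1 to 4 by 0.44 and the 3′ one by 0.19 on the log2 scale, and the difference was 0.21 for the 3′ GAPDH probe set and -0.26 for the 5′ one. In right kidneys it was 0.40 and 0.12 for the 3′ and 5′ GAPDH probe sets, and -0.09 and -0.23 for those of beta-actin. The GAPDH middle probe set read 2187 in left rat 2, against 3536 to 5077 on the other left arrays. Summed kidney tubule markers were 22461 to 26648 in left kidneys of rats 1 to 4, against 20891 to 21558 in those of rats 5 to 8, with 6 of 15 called higher and 0 lower. In right kidneys they were 20518 to 26806, against 21204 to 23046, with 4 called higher and 1 lower. Adrenal cortex markers summed to 248 to 261 in right kidneys of rats 1 to 4, against 301 to 335 in those of rats 5 to 8, with 2 of 3 called lower, and to 282 to 315, against 292 to 371, in left kidneys, with 0 called. Adipose markers were higher in right kidneys of rats 1 to 4 for 2 of 6 and lower for 0 by the same test, and higher for 1 in left kidneys. Of all tested probe sets, 38.0% were called in left and 35.2% in right kidneys. The part of probe design, RNA quality and cell makeup in the differences was not tested.

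Genes that serve the ribosome are set beside the members by counts, with 38.0% (left) and 35.2% (right) of all probe sets called. Other messenger RNAs with the pyrimidine motif had 2 of 8 genes called higher and 0 lower in left kidneys of rats 1 to 4, and 3 and 0 in right kidneys. Both were also called in right kidneys: Eef1a1, the elongation factor that brings in aminoacyl-tRNA (0.95 ± 0.10 in left and 1.09 ± 0.10 in right kidneys), and Naca, a chaperone at the tunnel exit (1.17 ± 0.15 and 1.54 ± 0.12). Translation factors had 4 of 18 called higher and 4 lower in left kidneys, and 6 and 3 in right kidneys. Eif3m, a subunit of the initiation factor eIF3, was higher (0.83 ± 0.16), and Eif4a2, an initiation helicase, was lower (-0.71 ± 0.12). Of the mTOR and S6 kinase genes 1 of 8 was called higher, the mTOR activator Rheb (0.47 ± 0.11), and 4 were called lower; in right kidneys the counts were 1 and 2. The 4 include Eif4ebp1, a repressor of the cap-binding factor that mTOR inactivates (-0.62 ± 0.12), and the S6 kinase gene Rps6kb1 (-0.32 ± 0.08).

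Mitochondrial ribosomal proteins, which serve the separate ribosomes of mitochondria, had 0 of 14 genes called higher and 5 lower in left kidneys of rats 1 to 4, and 0 and 2 in right kidneys. Of all probe sets, 17.1% were called higher and 20.9% lower in left kidneys, and 15.8% and 19.4% in right kidneys. Medians of the mitochondrial list were -0.27 in left and -0.15 in right kidneys, against -0.03 and -0.05 over all probe sets. Mrpl40 was lowest (-0.58 ± 0.10 in left kidneys, limma adjusted p = 0.00144). Ribosome biogenesis genes had 0 of 9 called higher and 3 lower in left kidneys, including Mybbp1a (-0.40 ± 0.08) and Ubtf, a factor for ribosomal RNA transcription (-0.33 ± 0.08). In right kidneys 1 was called higher, the nucleolar protein Gnl3 (0.79 ± 0.17), and 3 lower. Aminoacyl-tRNA synthetases had 0 of 4 called higher and 2 lower in both kidneys, Kars1 and Tars1, for lysine and threonine. Under ACTH, under DEX, between the hormones and between the kidneys of saline rats, 0 genes of these 6 lists were called. The closest was Eif4ebp1, with an ACTH minus DEX difference of 0.96 ± 0.19 (limma adjusted p = 0.0503).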

How the data were processed

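The authors deposited 1 signal intensity per probe set and array on a linear scale, from 1-colour oligonucleotide arrays. Per the labels' protocols, total RNA was taken with Tri-Reagent, cleaned on RNeasy columns and made into biotin-labelled cRNA. No source used here gives the software or normalization behind these intensities. The number of arrays limits the precision.

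From the deposited intensities, 59 control probe sets were removed, leaving 8740, and log2(signal + 16) was fitted with limma 3.58.1 in R 4.3.3 with an intensity trend. The hormone fit used all 16 arrays with terms for rat, right kidney, ACTH and DEX (5 residual degrees of freedom). The left fit compared 4 with 4 rats (6 degrees of freedom), and the right fit added hormone terms (4 degrees of freedom). Tests were two-sided, with p adjusted over 5244 probe sets. A fold is on the scale of signal + 16. The fits were also run on simulated data with independent noise for each probe set. No split of the rats as broad as the one seen here was simulated, so that run bears on no call between the rat sets.

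Right and left kidneys pair as 1 animal: their deviations from the group means correlated at 0.552 to 0.71 in each rat, and at 0.115 to 0.51 within the rat sets.

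Symbols are the platform's: 7006 probe sets had 1, 308 several and 1426 none. No intensity column was left unused. Named members were, per comparison, up to 15 called each way by size, filled to 10 by p, with Rplp0, Rps6, Rpl3 and genes whose probe sets disagree; further members are named to account for all. Up to 3 genes per list, by p, were named. The members, lists, tests and alternatives were chosen with earlier results of these data known. Alternatives changed the pseudocount, filter, normalization, trend, rats, block and covariates.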

Additional observations from a re-analysis of the deposited data

Results flagged for a closer look

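Dixon's test at the 95% level was run on 143 groups of 4 rats, for 46 named members and for medians over all members. In 5 groups a rat stood apart. Among independent groups chance gives about 1 in 20, but these groups reuse the same rats, so the count cannot be set against that rate. In 4 of the 5 groups the rat was saline rat 4, whose right minus left change was above those of the other saline rats. Its log2 changes were 0.55 for Rpl36, 0.329 for the Rpl3 probe set with a mean signal of 2248, 0.281 for the Rpl11 probe set with a mean signal of 1501, and 0.236 for the Rps3 probe set with a mean signal of 1389. Over all 55 members the median change of saline rat 4 was 0.184, against -0.058, -0.057 and 0.028 in saline rats 2, 6 and 8. The fifth was the Rpl26 probe set with a mean signal of 1954, which read 2215 in the left kidney of rat 4, against 2035 to 2045 in those of rats 1 to 3. Of 92 pairs of a member and a hormone, 0 had both hormone rats changing one way and all 4 saline rats the other.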

How the results depend on the processing

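Under ACTH and DEX 0 members were called with any alternative that gives a count; between the hormones 1 member was called without rat 1 and 0 otherwise. In left kidneys the count of called members was 28 to 37 under the other settings and 20 to 32 when 1 rat was left out, with 21 without rat 4 and 20 without rat 6; in right kidneys it was 30 to 33 and 22 to 29. When 1 rat was left out, the members' share in left kidneys was 36.4% to 58.2%, against 29.8% to 37.0% of all probe sets, and in right kidneys 40% to 52.7%, against 23.3% to 31.1%. Under the other settings it was 50.9% to 67.3%, against 34.2% to 44.4%, in left and 51.6% to 60.0%, against 33.8% to 35.5%, in right kidneys; in each of these fits it was above that of all. Of the named called members, 17 of 30 in left and 20 of 29 in right kidneys stayed called whichever rat was left out. The median ACTH effect over the members was 0.059 with no replicate block and in right kidneys only, and -0.114 to -0.044 when 1 rat was left out. The median DEX effect ran from -0.142 without rat 3 to 0.147 without rat 7. The median ACTH minus DEX difference ran from -0.2 without rat 7 to 0.059, and was -0.242 among rats 1 to 4 and 0.083 among rats 5 to 8.

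No named hormone effect was called, and the values below turned in sign, each for 1 probe set of its gene. By mean signal these are 1317 for Rpl24, 1486 for Rpl6, 2248 for Rpl3, 952 for Rpl23 and 814 for Rps6. With no replicate block, and equally in right kidneys only, ACTH effects were 0.082 (Rpl19) and 0.004 (Rpl24), DEX effects -0.131 (Rpl6), 0.038 (Rpl24), -0.078 (Rpl7a) and -0.036 (Rplp0), and differences 0.073 (Rpl6) and 0.066 (Rpl3). With no replicate block the kidney difference in saline rats was -0.007 (Rpl24), 0.021 (Rplp0) and 0.015 (Rpl3). With the adipose markers as a covariate, DEX gave -0.002 (Rpl7a) and -0.099 (Rplp0), and the difference 0.006 (Rpl3). With quantile normalization the difference was -0.009 (Rplp0). The right-kidney set differences were then -0.003 (Rpl11, mean signal 1501) and -0.045 (Rps15, mean signal 709). With arrays centred, that of Rps29 (mean signal 5173) was 0.01. When 1 rat was left out, the ranges were -0.102 to 0.292 (Rplp0) for ACTH. For DEX they were -0.389 to 0.012 (Rpl24), -0.063 to 0.36 (Rps23), -0.046 to 0.2 (Rplp0) and -0.218 to 0.34 (Rps6). For the difference they were -0.597 to 0.017 (Rpl4), -0.599 to 0.062 (Rpl23), -0.178 to 0.215 (Rplp0) and -0.239 to 0.059 (Rpl3). In saline rats they were -0.02 to 0.203 (Rps2-ps1), -0.013 to 0.158 (Rps15, mean signal 2309), -0.06 to 0.05 (Rplp0) and -0.118 to 0.037 (Rpl3). For right-kidney sets they were -0.055 to 0.086 (Rps15, mean signal 709) and -0.056 to 0.081 (Rps29, mean signal 5173). There the Rps15 probe set with a mean signal of 2309 stayed at -0.848 to -0.608. The Rps29 one with a mean signal of 2876 stayed at 0.661 to 0.763. The cause of the turns in sign was not tested. Array number and the 2 rats per hormone limit these values.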
